A study of Rattus norvegicus with 12 samples.

Results

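In hippocampal small RNA of adult male rats (Sprague Dawley), the mature miRNAs of miR-124 and miR-9 were examined. All listed names with the stem miR-124, miR-9a or miR-9b were taken, both arms of each, which gave 6 of the 753 mature miRNAs: rno-miR-124-3p, rno-miR-124-5p, rno-miR-9a-5p, rno-miR-9a-3p, rno-miR-9b-5p and rno-miR-9b-3p, written below without the prefix for rat. Of these 6, 4 were retained for testing, and both arms of miR-9b were not. Rats aged P70 to P80 received a single injection of ethanol at 4 g/kg (labelled EtOH, n = 8) or of vehicle (labelled Veh, n = 4), and tissue was taken 3 h later. Each library came from 1 rat, and rats are named here by their animal numbers. The labels call the tissue right hippocampus, whereas the study describes dorsal hippocampus. The study describes 8 rats per group, and the remaining vehicle rats were not analysed here.

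Both families are known for their part in making and keeping neurons. miR-124 is highly enriched in neurons and represses transcripts of other cell types, among them that of the splicing repressor PTBP1. miR-9 is made in neural progenitors and in neurons, and its 2 arms act on different partners: miR-9-5p targets REST, a repressor of neuronal genes, and miR-9-3p targets its cofactor CoREST. miR-9 is also known from work on ethanol in neurons, where it targets transcripts of the BK potassium channel. A miRNA precursor is a hairpin whose 5p arm and 3p arm can each be loaded as the mature strand, and bases 2 to 8 of a mature strand, the seed, pair with target transcripts.

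Sequences were taken from RefSeq (GRCr8) and 4 of the 6 members matched by name. They are shown because the arms differ in seed, and because miR-9b lies on the opposite strand of the miR-9a hairpins. Each reads 5′ to 3′ with its seed in capitals.
miR-9a-5p: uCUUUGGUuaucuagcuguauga
miR-9a-3p: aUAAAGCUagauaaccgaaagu
miR-9b-5p: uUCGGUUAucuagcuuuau
miR-9b-3p: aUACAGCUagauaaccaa
The 4 seeds differ from each other, and 0 other rat miRNAs in the table shared any of them.

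The mature miR-9a arms are encoded by 3 hairpins, Mir9-1 and Mir9-2 on chromosome 2 and Mir9-3 on chromosome 1 (GRCr8, plus strand). They are shown with the miR-9a-5p arm and then the miR-9a-3p arm in capitals.
Mir9-1: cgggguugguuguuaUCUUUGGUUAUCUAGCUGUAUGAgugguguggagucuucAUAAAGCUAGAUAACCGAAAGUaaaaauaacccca
Mir9-2: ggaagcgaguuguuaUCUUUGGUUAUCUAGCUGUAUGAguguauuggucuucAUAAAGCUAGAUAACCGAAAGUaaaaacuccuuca
Mir9-3: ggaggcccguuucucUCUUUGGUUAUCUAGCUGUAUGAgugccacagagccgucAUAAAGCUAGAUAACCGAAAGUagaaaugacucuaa
Both arms are the same in the 3 hairpins, while the loops of 16, 14 and 16 bases and the flanks differ. Reads of a mature miR-9a arm therefore cannot be assigned to one of the 3 loci.

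The miR-9b loci, named Mir3597 in RefSeq, are read from the minus strand at the same 3 places. RefSeq lists miR-9b-5p at all 3, but miR-9b-3p at 2 only, Mir3597-2 and Mir3597-3. Below, the reverse complement of each miR-9a arm is given with the stretch identical to a miR-9b arm in capitals.
miR-9a-3p, reverse complement, with miR-9b-5p: acuUUCGGUUAUCUAGCUUUAU
miR-9a-5p, reverse complement, with miR-9b-3p: ucAUACAGCUAGAUAACCAAaga
All 19 bases of miR-9b-5p and all 18 bases of miR-9b-3p were found there. In the same sense, the longest run that miR-9b-5p shares with miR-9a-5p is 12 bases, GGUUAUCUAGCU.

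Values below are CPM, a library's reads set to a common total and scaled by edgeR's TMM factors. A mature miRNA is read whole, so levels of different miRNAs were not divided by length, but small RNA libraries capture different ends with different efficiency. Library totals ranged from 1960702 to 4917929 estimated counts. At these totals 3 counts, taken as the limit that a count of 0 allows, were 0.61 to 1.53 CPM. Such floors and intervals on counts cover counting error only. In bulk tissue, fewer cells of a type and less RNA per cell cannot be told apart.

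miR-9a-5p was the most abundant member and held between 1.98% and 2.67% of the reads of each library, ranking between 9 and 13 of all miRNAs. In vehicle rats 9, 10, 19 and 20 its level was 25155, 25446, 22316 and 24312 CPM. In the 8 ethanol rats the lowest level was 19985 CPM, the median 23641 and the highest 24720. The groups overlapped, with 2 of the ethanol rats, rats 4 and 8, under the lowest vehicle value.

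miR-124-3p, the arm through which miR-124 is known to act, held between 0.241% and 0.363% of the reads. Its level in vehicle rats 9, 10, 19 and 20 was 3183, 3379, 3091 and 3375 CPM. The ethanol rats ranged from 2543 CPM in rat 8 to 3485 in rat 3, with a median of 3083. The lowest vehicle value was undercut in 4 of the 8 ethanol rats, and the highest was exceeded in 1.

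miR-9a-3p followed at 915, 1054, 914 and 930 CPM in vehicle rats 9, 10, 19 and 20. In the ethanol rats it ranged from 753 CPM in rat 8 to 1049 in rat 23, with a median of 945. Vehicle rat 10 stood above the other 3 vehicle rats, which lay close together.

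miR-124-5p was the least abundant member with reads in every library, at 29.1, 48.1, 27.8 and 33.8 CPM in vehicle rats 9, 10, 19 and 20. The ethanol rats ranged from 23.1 CPM in rat 8 to 38.7 in rat 15, with a median of 32.1. These levels rest on 57 to 159 reads, so that counting error alone was up to 13.2% of a value, against at most 1.34% for miR-124-3p.

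The order of levels was miR-9a-5p, miR-124-3p, miR-9a-3p and miR-124-5p in each of the 12 libraries, and the ranges of neighbours in this order did not overlap. Among the other neuron-enriched miRNAs examined, miR-9a-5p (mean 23479 CPM) lay near miR-127-3p, the most abundant of them (25465 CPM). miR-124-3p (mean 3138 CPM) lay between miR-541-5p (3746 CPM) and miR-153-3p (1461 CPM).

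**Figure D1:**
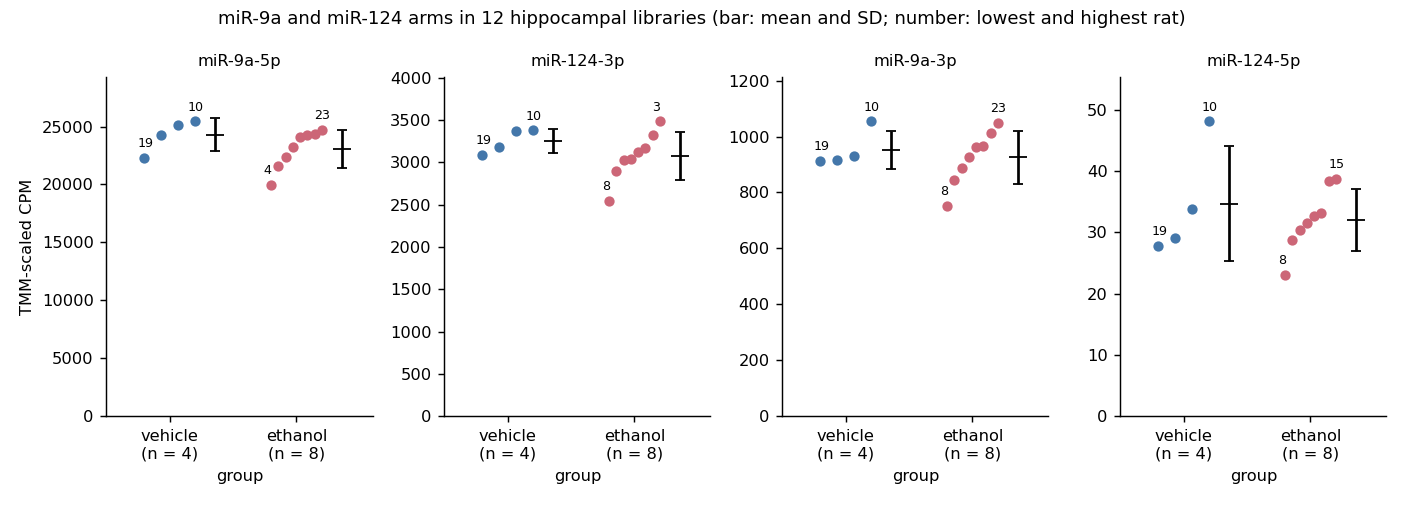
TMM-scaled CPM (vertical axis, from 0, a separate scale per panel) of the 4 retained members in vehicle and ethanol rats (horizontal axis). Each point is 1 rat, bars give the group mean and SD, and numbers name the lowest and highest rat. The groups overlap in every panel. Rat 8 is lowest in 3 panels and rat 10 stands high for miR-9a-3p and miR-124-5p.

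Reads of miR-9b were almost absent. miR-9b-5p had 1 read, in ethanol rat 4, and 0 in the other 11 libraries, and miR-9b-3p had 0 reads in all 12 libraries. Over all libraries, that 1 read stood against 34319 reads of miR-9a-3p, the arm on the opposite strand, so miR-9b-5p made up 0.00291% of that number (exact Clopper-Pearson 95% interval of its share of both, 7.38e-05% to 0.0162%). The 0 reads of miR-9b-3p stood against 863489 reads of miR-9a-5p, which allows up to 0.000347%. Of the reads counted for miR-9a and miR-9b, nearly all were thus those of miR-9a. miR-9b was not detectable beyond the single read, and no comparison between groups was made for it. Its arms are 19 and 18 bases long, whereas the libraries were gel purified at 20 to 30 nt. The limits above therefore hold for reads in these libraries and not for levels in the tissue. The part of the size selection in the near absence of miR-9b was not tested.

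The ratio of the 2 arms of a miRNA needs no scaling between libraries. Each such ratio pools the precursors of several loci, Mir124-1, Mir124-2 and Mir124-3 for miR-124 and Mir9-1, Mir9-2 and Mir9-3 for miR-9a. For miR-124, reads of the 3p arm outnumbered those of the 5p arm by 69.95 to 1 in vehicle rat 10 and by 108.9, 110.9 and 99.4 to 1 in vehicle rats 9, 19 and 20. In the ethanol rats this ratio ranged from 81.0 to 120.4, with a median of 95.02. The groups overlapped, and the lowest ratio of all 12 was that of vehicle rat 10, in which miR-124-5p was high.

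For miR-9a the arms were less unequal and the ratio was steadier. The 5p arm outnumbered the 3p arm by 27.5, 24.1, 24.4 and 26.1 to 1 in vehicle rats 9, 10, 19 and 20, and by 22.5 to 28.7 to 1 in the ethanol rats (median 24.5). Between the highest and the lowest library this ratio differed 1.28-fold, compared with 1.72-fold for miR-124. The rarer arm of miR-124 has far fewer reads, and the part of this in the wider range was not tested.

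Neither arm ratio differed between groups beyond the spread between rats. The mean log2 ratio of miR-124-3p to miR-124-5p was 6.58 ± 0.31 (SD, n = 4) after vehicle and 6.59 ± 0.20 (SD, n = 8) after ethanol (exact permutation over 495 splits, two-sided, p = 0.958). The difference of 0.01 had a 95% interval, from the same exact test, of -0.30 to 0.34. For miR-9a-5p to miR-9a-3p they were 4.67 ± 0.09 (SD, n = 4) after vehicle and 4.64 ± 0.12 (SD, n = 8) after ethanol, and differed by -0.03 with an interval of -0.18 to 0.12 (exact permutation p = 0.661). The ratio of the miR-9b arms could not be formed.

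The families were also compared with each other. Reads of miR-9a-5p exceeded those of miR-124-3p by 7.90, 7.53, 7.22 and 7.20 to 1 in vehicle rats 9, 10, 19 and 20, and by 6.41 to 8.49 to 1 in the ethanol rats (median 7.67). The ethanol rats spread on both sides of the vehicle rats, with 3 of 8 above and 2 of 8 below all of them. The mean log2 ratios, 2.90 ± 0.06 (SD, n = 4) after vehicle and 2.91 ± 0.16 (SD, n = 8) after ethanol, were 0.01 apart with an interval of -0.18 to 0.20 (exact permutation p = 0.917). Adjusted over these 3 ratios, each p was 0.958 (Benjamini-Hochberg, exact permutation tests).

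**Figure D2:**
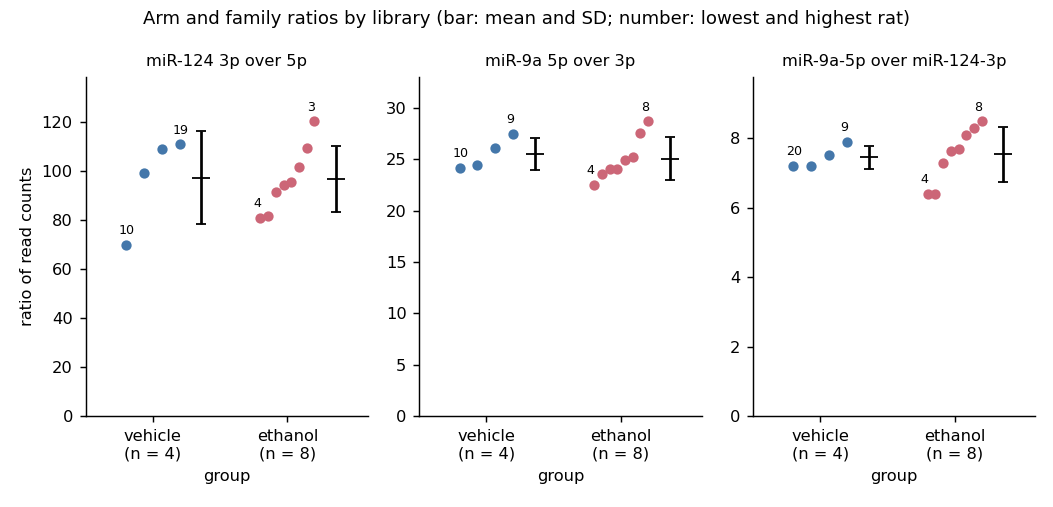
Ratio of read counts (vertical axis, from 0) for the arms of miR-124, the arms of miR-9a, and miR-9a-5p over miR-124-3p, in vehicle and ethanol rats (horizontal axis). Each point is 1 rat, bars give the mean and SD, and numbers name the lowest and highest rat. The groups overlap in every panel, the ethanol rats reach beyond the vehicle rats on both sides in the last 2 panels, and miR-124 in rat 10 has the lowest ratio, 69.95.

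The effect of ethanol on the level of each member was tested with edgeR's quasi-likelihood test over all 420 retained miRNAs, with Benjamini-Hochberg adjustment. Of the 4 retained members, 0 had an adjusted p under 0.05 and 0 had a raw p under 0.05. Over all retained miRNAs, 0% passed the adjusted threshold and 4.05% (17 of 420) the raw one, 2.38% lower and 1.67% higher after ethanol. Groups did not overlap for 0 of the 4 members and for 0.238% of all retained miRNAs. All 4 means were lower after ethanol, as were those of 54.0% of all retained miRNAs, by amounts within the spread between rats.

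miR-124-3p was 3257 ± 143 CPM (SD, n = 4) after vehicle and 3078 ± 283 (SD, n = 8) after ethanol. The fitted log2 fold change of -0.08 had a standard error of 0.08 (edgeR, adjusted p = 0.971), and the exact permutation test of its log2 CPM gave p = 0.271. The 95% interval of the fold, ethanol over vehicle, was 0.844 to 1.06. Levels of miR-124-5p were 34.7 ± 9.31 CPM (SD, n = 4) after vehicle and 32.1 ± 5.07 (SD, n = 8) after ethanol. The fit gave a log2 difference of -0.10 ± 0.16 (SE), and the exact permutation p was 0.59. Its interval for the fold was wider, 0.732 to 1.19.

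miR-9a-5p was 24307 ± 1412 CPM (SD, n = 4) after vehicle and 23065 ± 1646 (SD, n = 8) after ethanol. The fit gave a log2 difference of -0.08 ± 0.07 (SE; adjusted p = 0.971, edgeR), with an exact permutation p of 0.234. Its fold lay between 0.858 and 1.05 (95% interval). miR-9a-3p was 953 ± 67.7 CPM (SD, n = 4) after vehicle and 925 ± 95.3 (SD, n = 8) after ethanol, with a fitted log2 difference of -0.04 ± 0.09 (SE) and an exact permutation p of 0.612. Its fold lay between 0.852 and 1.11.

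For miR-124-3p and both arms of miR-9a, folds below 0.844 or above 1.11 thus lay outside the 95% interval, and smaller changes could not be told from none. Without vehicle rat 10 the log2 fold changes of miR-124-5p and miR-9a-3p turned to 0.09 and 0.01 (edgeR, adjusted p = 0.908 and 0.995). The smallest p that the exact permutation test allows here is 0.00202.

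**Figure D3:**
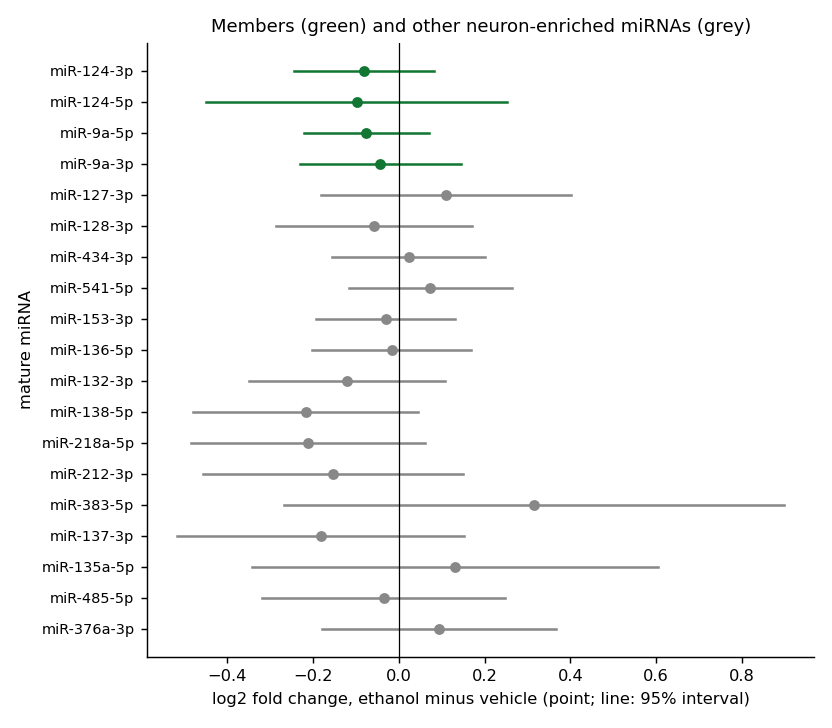
Log2 fold change of each miRNA, ethanol minus vehicle (horizontal axis, point), with its 95% interval (line), for the 4 retained members in green and 15 other neuron-enriched miRNAs in grey. All 19 intervals include 0, and those of miR-9a-5p and miR-124-3p are among the narrowest.

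The spread between rats of the abundant arms was small. The SD of log2 CPM within groups was 0.10 for miR-9a-5p and 0.12 for miR-124-3p. Among the 50 miRNAs nearest in abundance to miR-9a-5p, 8 had a smaller SD, and among those nearest to miR-124-3p, 13 had. As miR-9a-5p ranked between 9 and 13 of all miRNAs, most of its 50 were less abundant than it. For miR-9a-3p the SD was 0.14, with 22 of 50 smaller, and for miR-124-5p it was 0.27, with 33 of 50 smaller.

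Across the 12 rats the abundant arms of both families were not shown to move together. Pearson's r of log2 CPM between miR-124-3p and miR-9a-5p was 0.34 (permutation p = 0.275) and Spearman's rho was 0.40 (permutation p = 0.203). Without ethanol rats 4 and 8, the 2 rats farthest from the median of miR-9a-5p, r was 0.01 (permutation p = 0.97). Within the 8 ethanol rats r was 0.18 (exact permutation p = 0.655), and 4 vehicle rats are too few for a value. With counts scaled by library totals alone r rose to 0.64 (permutation p = 0.0252), so the call depends on the scaling.

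The rarer arms, miR-124-5p and miR-9a-3p, gave r = 0.70 and rho = 0.62 over the 12 rats (permutation p = 0.013 and 0.0369), and the adjusted p for r over the 2 pairs was 0.0259. Ethanol rat 8 was lowest for both and vehicle rat 10 highest for both. Without these 2 rats, the farthest from the median of miR-9a-3p, r was 0.24 (permutation p = 0.495). Leaving out the ends also narrows the range of values, so this fall does not show that the relation is absent. Leaving out rat 8 alone gave r = 0.52 (permutation p = 0.102), and leaving out rat 10 alone gave r = 0.63 (permutation p = 0.0409). Within the 8 ethanol rats r was 0.65 (exact permutation p = 0.0784) and rho was 0.55 (exact permutation p = 0.171).

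**Figure D4:**
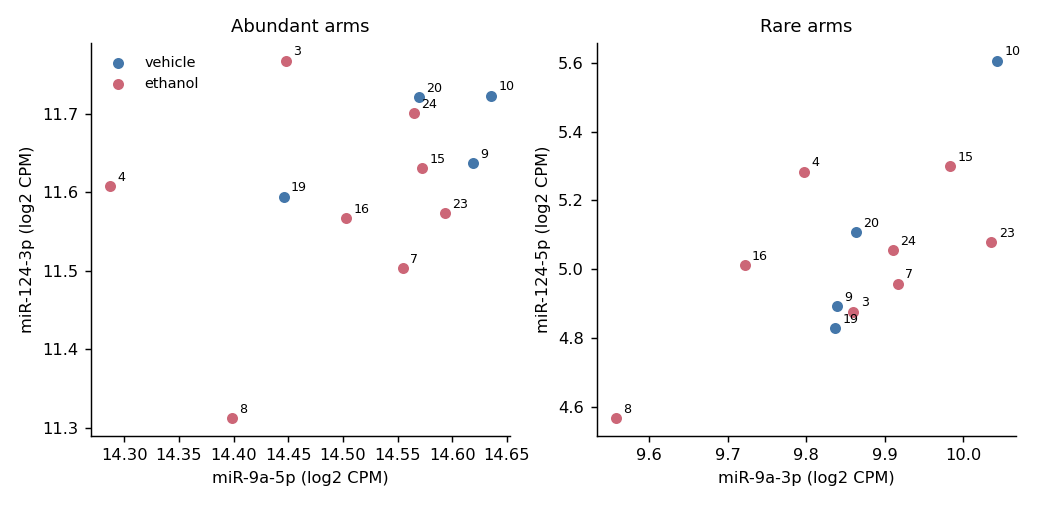
Log2 CPM of miR-124-3p against miR-9a-5p (left) and of miR-124-5p against miR-9a-3p (right), with 1 point per rat, labelled by animal number and coloured by group. On the left rats 3, 4 and 8 stand away from the rest. On the right rats 8 and 10 lie at the 2 ends and the other 10 rats form a loose cloud, in which r was 0.24.

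miRNAs whose levels followed 1 arm of each family, miR-124-3p or miR-9a-5p, were sought over the 12 rats. They came from 339 other miRNAs with a mean of at least 10 CPM. Pearson's r between the 2 arms was 0.56 for miR-124 and 0.64 for miR-9a, and between arms of different families 0.32 to 0.70. These are descriptions without a test, and every value comes from the same 12 libraries, which differ in depth and in their levels of marker miRNAs. For miR-124-3p the 5 highest Pearson r were those of miR-376b-5p (0.76), miR-329-5p (0.72), miR-136-5p (0.70), miR-153-3p (0.69) and miR-153-5p (0.66). Of all those compared, the median r was -0.02, and miR-9a-5p came 55 in this order. For miR-9a-5p they were miR-410-3p (0.89), miR-7b (0.86), miR-361-3p (0.86), miR-493-3p (0.86) and miR-218b (0.83), against a median of 0.06, with miR-124-3p at 109. The 2 sets of 5 had no miRNA in common, as would most pairs of sets of 5 drawn at random from the 339.

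Other neuron-enriched miRNAs were examined as a list of 16, of which 15 were retained and miR-129-5p had 0 reads in every library. The reason for this was not tested, and its absence from the tissue was not shown. In edgeR's quasi-likelihood test 0 of the 15 had a raw p under 0.05 in either direction, with 9 lower and 6 higher after ethanol and a median log2 fold change of -0.03, against -0.02 for all retained miRNAs. The most abundant, miR-127-3p, had a log2 fold change of 0.11 (standard error 0.13). miR-138-5p, which is enriched at synapses, had the smallest raw p (log2 fold change -0.22, standard error 0.12, edgeR adjusted p = 0.971). For miR-153-3p, among the miRNAs most like miR-124-3p, it was -0.03 (standard error 0.08).

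Markers of other cell types were present in every library. The summed level of 3 choroid plexus miRNAs, led by miR-204-5p, ran from 28981 to 50272 CPM in vehicle rats and from 16517 to 70888 in ethanol rats, with 0 of 3 at a raw p under 0.05 and a median log2 fold change of -0.06. Ethanol rat 8, lowest for 3 of the 4 members, had the highest choroid plexus marker mean (13.3 on the log2 CPM scale). Ethanol rat 4, lowest for miR-9a-5p, had the highest vascular and blood and microglial marker means (11.1 and 6.34). Ethanol rat 3, highest for miR-124-3p, came close to these (11.1 and 6.33) and had the lowest choroid plexus marker mean (11.05). As a description over the 12 libraries, whose values share one scaling, Pearson's r of miR-9a-5p was -0.77 with the vascular mean, -0.70 with the blood and microglial mean, -0.34 with the choroid plexus mean and 0.85 with the mean of the other neuron-enriched miRNAs. For miR-124-3p these were -0.01, -0.05, -0.58 and 0.50. With the oligodendrocyte and muscle means, r was -0.17 and -0.06 for miR-9a-5p and -0.37 and 0.04 for miR-124-3p. With the choroid plexus mean as a covariate, the log2 fold changes were -0.10 for miR-124-3p and -0.09 for miR-9a-5p (edgeR, adjusted p = 0.889 for both).

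Of 4 oligodendrocyte miRNAs, led by miR-338-3p, 0 had a raw p under 0.05 (median log2 fold change 0.15, summed level 9542 to 18019 CPM after vehicle and 10080 to 19408 after ethanol). Of 4 vascular miRNAs, led by miR-143-3p, 0 did (median 0.08, 38690 to 48386 and 32606 to 67959 CPM). Of 8 blood and microglial miRNAs, led by miR-21-5p, 1 did, miR-146a-5p, which was higher after ethanol (log2 fold change 0.28, standard error 0.13, adjusted p = 0.971, edgeR's quasi-likelihood test). Their median was 0.03 and their summed level 1738 to 2548 and 2100 to 2610 CPM. Of 5 muscle miRNAs, led by miR-133b-3p, 3 were retained, all lower after ethanol (median -1.76), and 1, miR-133a-3p, had a raw p under 0.05 (log2 fold change -1.99, standard error 0.72). Their summed level ran from 124.3 to 1762 CPM after vehicle and from 111 to 1710 after ethanol. The muscle mean (log2 CPM) was 9.11 for rat 9, 9.00 for rat 19 and 9.19 for rat 20, all given vehicle. Ethanol rat 16 had 9.13. It was 5.31 for vehicle rat 10 and 5.20 to 6.45 for the remaining ethanol rats. The group differences of these 3 miRNAs thus rest on a few rats and are not separate results. Over all retained miRNAs, 4.05% had a raw p under 0.05 (edgeR) and 54.0% were lower. Adjusted over all retained miRNAs, 0 members of these lists passed, and the part of these markers in the values of miR-124 and miR-9 was not tested beyond the choroid plexus covariate.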

How the data were processed

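Right hippocampus RNA (1 µg of total RNA per rat, gel purified at 20 to 30 nt, read for 37 cycles on a MiSeq) was measured in 12 rats. For each rat the authors deposited estimated counts, some of them fractional, over 753 mature miRNAs, not scaled to library size. The submitters' processing notes name cutadapt, Partek and the build rn5, with no role or version, and how reads shared between miRNAs were divided is not given in the sources used here. Values of miR-9a were fractional in 12 libraries and those of miR-124-3p in 5. RefSeq's build differs from rn5, so no coordinates are printed. Which libraries were sequenced together is not given in the sources used here, so batches could not be compared.

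Counts were rounded. Retained were 420 miRNAs, after dropping those below 10 reads in at least 10 of the 12 libraries. Tools were R 4.3.3 (DESeq2 1.42.0, edgeR 4.0.16, limma 3.58.1) and Python 3.11.15. The groups were compared with TMM factors and no covariates in the quasi-likelihood test of edgeR. Its standard errors and 95% intervals come from that fit. Log2 CPM used a prior count of 2 and ratios a pseudocount of 0.5. Ratios were compared by exact permutation, whose inversion gave their intervals, and correlations used 100000 permutations. None of the 66 library pairs agreed within sampling noise (lowest chi-square over its degrees of freedom, 30.9). Fits and permutation tests were tested on simulated data. The members, lists and tests were chosen with earlier results of these data known. Named were the 6 members, the 5 miRNAs most like miR-124-3p, the 5 most like miR-9a-5p and those sharing a seed. Of each list of marker miRNAs, the most abundant and the one with the smallest raw p were named. Outside this rule, miR-541-5p and miR-153-3p were named for their levels, after these were seen. Alternatives covered normalization, filter, test, rounding, covariates, pseudocount and each rat left out.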

Additional observations from a re-analysis of the deposited data

Results flagged for a closer look

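Within each treatment, the 4 retained members, the 3 ratios, miR-9b-5p reads and library totals were searched for a rat that stood apart. There were 17 such sets of values with any spread, of which 2 held one. Chance marks about 1 set in 20 where sets are separate and values continuous. Here the ratios share counts with the members, and a single read among counts of 0 is always marked, so that rate gives no background for the 2. Vehicle rat 10 was the highest of its group for miR-9a-3p, at 10.04 log2 CPM, with a gap to the next vehicle rat of 0.873 of the group's range. Leaving out this rat moved the log2 fold change from -0.04 to 0.01. Ethanol rat 4 held the single read of miR-9b-5p, against 0 in the other ethanol rats, so that its gap was 1.0 of the range; a single read carries no more than that.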

How the results depend on the processing

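Under all 26 alternatives, which covered normalization, filter, test, rounding, covariate and any 1 rat left out, 0 members had a raw p under 0.05, and 0 had an adjusted p under 0.05 under the 25 that give one (the exact permutation test gives none). The log2 fold change of miR-124-3p stayed between -0.12 and -0.03 and that of miR-9a-5p between -0.11 and -0.03. Without vehicle rat 10 those of miR-124-5p and miR-9a-3p turned to 0.0882 and 0.00887, and they kept their direction otherwise, with lowest values of -0.194 and -0.0707 with a rat left out. The group difference in the log2 arm ratio of miR-124 turned to -0.0176 with a pseudocount of 5 and to -0.13 as a difference in medians, and it lay between -0.15 and 0.0766 with each rat left out. With each rat left out, that of miR-9a lay between -0.0583 and 0.00606, and that of miR-9a-5p over miR-124-3p between -0.0166 and 0.0415, with 0.0567 as a difference in medians. The p of each ratio stayed above the threshold under all alternatives run. The correlation of miR-124-3p with miR-9a-5p passed with library totals alone (r = 0.64) and with no other alternative run, and it lay between 0.11 and 0.48 with each rat left out. For the correlation of miR-124-5p with miR-9a-3p, the alternatives were chosen after seeing the data. It fell to 0.24 without its 2 farthest rats and lay between 0.52 and 0.79 with each rat left out. It passed under 15 alternatives, among them library totals alone (r = 0.79) and residuals after the choroid plexus mean (r = 0.65). Under 2 it did not pass, without its 2 farthest rats and without ethanol rat 8. The cause of these changes was not tested. No paired analysis was made, because replicate numbers are animal numbers and the labels give no pairing of rats between groups. The study describes pair housing and a limit on pups per litter in each condition. Which rats shared a cage or litter is not given in the sources used here. All tests treat the 12 rats as independent, and an effect of cage or litter was not tested. Depth limits miR-124-5p, depth and the purified size range limit miR-9b, and the 4 vehicle rats limit every comparison.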
